A study of Mus musculus with 12 samples.

Results

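Genes linked to the Th17 programme were followed in regulatory T cells (Treg) sorted from a venous thrombus, from the wall of the vein around it and from spleen. The 9 genes were Stat3, Il23r, Il1r1, Il17a, Il17f, Il22, Ccl20, Tmem176a and Tmem176b. They were chosen by name, each had 1 row in the table of every library, and they make up 9 of the 20856 genes that could be joined over the libraries.

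Th17 cells are CD4 T cells that secrete interleukin 17 and interleukin 22 at barrier sites and in inflamed tissue. Their programme is started by cytokines that act through STAT3, and interleukin 1 and interleukin 23 sustain it through the receptors Il1r1 and Il23r. Some Treg of inflamed tissue carry parts of this programme while they keep Foxp3, the transcription factor that defines Treg.

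All cells came from DEREG mice, C57BL/6 mice with a Foxp3-DTR/EGFP transgene that puts a diphtheria toxin receptor and EGFP under Foxp3 control, so the EGFP reports the transgene and not the native Foxp3 gene. All mice, spleen donors included, had a ligated inferior vena cava, a flow reduction model of deep vein thrombosis, and tissues were taken on day 14. No toxin is named in the labels, and age and sex of the mice are not given there. Live CD45+ CD4+ EGFP+ cells that carried CD69, an activation and tissue residence marker, were sorted from thrombus, vein wall or spleen, with 4 RNA sequencing libraries for each site. The libraries vein wall 3 and 4 were nearly identical, as were spleen 3 and 4. Each pair was summed and counted as 1 sample, which left 4 thrombus, 3 vein wall and 3 spleen samples.

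Total exon reads ran from 9719151 to 55386086 per library. A gene with 0 reads in a sample could still have had up to 0.0388 to 0.317 CPM there (reads of a gene per 1000000 exon reads, on scaled library totals), a limit of 3 reads that covers counting error only. The libraries carry no molecular identifiers and do not mark strand. The files fall into 3 sets with different gene models. Set 1 holds thrombus 1 and spleen 1. Set 2 holds thrombus 2, vein wall 1 and spleen 2, and set 3 holds all other libraries. The labels do not tell if cells of 1 mouse or of a pool went into a library. The p-values thus rest on the spread of these samples alone, part of which may be technical. Foxp3 itself was present in every sample, at 275 to 706 CPM in thrombus, 354 to 484 CPM in vein wall and 400 to 675 CPM in spleen.

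Stat3 levels overlapped between all 3 sites, and the receptors, the secreted products and the Tmem176 pair varied more between samples. Tmem176a was higher in each of the 4 thrombus samples, at 11.4 to 40.2 CPM, than in any spleen sample, at 2.78 to 4.28 CPM. Il1r1 had exon reads in 4 of 4 thrombus samples and 1 exon read in all spleen samples together. Il17a, Il17f and Il22 were at or near 0 in most samples, and nearly all of their reads came from 1 or 2 samples of thrombus or vein wall. No member passed the test, edgeR's quasi-likelihood test over 11706 genes at a Benjamini-Hochberg adjusted p under 0.05, in any comparison.

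Of the 9 members, 6 passed the filter on low counts, and Il17a, Il17f and Il22 did not. In thrombus against spleen edgeR called 0 of these 6, where it called 0.145% of all tested genes. An unadjusted p under 0.05 was found for 1 of the 6 members and for 4.13% of all tested genes. In vein wall against spleen it called 0 of 6, where it called 0.111% of all tested genes, and 1 of the 6, Il1r1, had an unadjusted p under 0.05, beside 5.47% of all tested genes. Il1r1 passed the filter only through the samples in which it was high, so nothing is read from this count. In thrombus against vein wall it called 0 of 6 members and 0 genes in all, and 0 members had an unadjusted p under 0.05, against 2.91% of all tested genes. DESeq2's Wald test called 1 member, Tmem176a, in thrombus against spleen, where it called 1.14% of the genes it tested. It called 0 members in vein wall against spleen and 0 in thrombus against vein wall, where it called 1.48% and 0.382% of genes. With the set of files as a covariate edgeR again called 0 members in each comparison, where it called 0.453% of tested genes in thrombus against spleen and 0.41% in vein wall against spleen. In bulk samples, a larger share of cells that express a gene and more RNA of it per cell cannot be told apart.

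Without any overlap between thrombus and spleen samples were 2 of the 6 members, Il1r1 and Tmem176a, both higher in thrombus, and 4.98% of all tested genes also did not overlap in either direction. Nothing is read from the place of Il1r1 in that count either. No member kept apart in vein wall against spleen, where 13.2% of tested genes did, or in thrombus against vein wall, where 3.84% did.

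**Figure D1:**
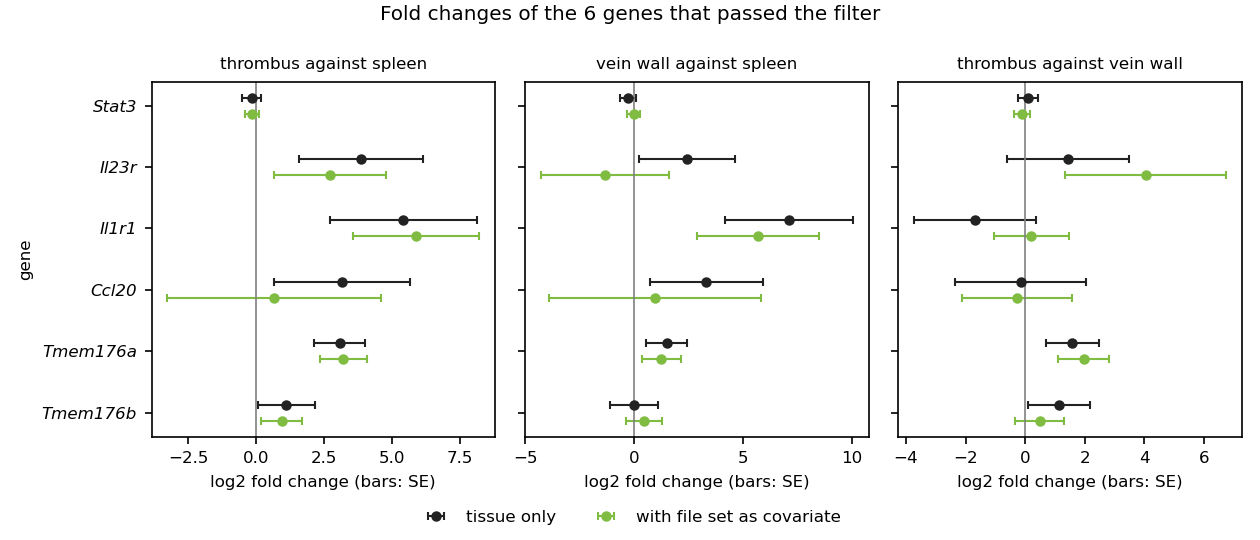
Log2 fold change (x axis; bars are the standard error) of the 6 members that passed the filter, in 3 comparisons, from edgeR with tissue only (black) or with the set of files as a covariate (green). Tmem176a in thrombus against spleen lies at 3.07 and 3.21, while the estimate of Il23r in vein wall against spleen lies on opposite sides of 0.

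Stat3 encodes the transcription factor that carries the signals of interleukin 6, 21 and 23 to the nucleus, and lies on chromosome 11 (GRCm38 chr11:100885098-100939540, minus strand). It had 167, 89.3, 113 and 89.9 CPM in thrombus 1 to 4. It had 105, 105 and 113 CPM in vein wall 1, 2 and 3-4, and 164, 107 and 117 CPM in spleen 1, 2 and 3-4. All 3 groups overlapped, and by CPM the samples of set 1, thrombus 1 and spleen 1, were the highest. The log2 fold change was -0.17 ± 0.34 in thrombus against spleen, -0.27 ± 0.37 in vein wall against spleen and 0.10 ± 0.34 in thrombus against vein wall (SE; n = 4 thrombus, 3 vein wall and 3 spleen samples). The adjusted p of edgeR was 0.977 to 1.00 in these comparisons. CPM do not correct for exon length, which for Stat3 was 9527 bases in set 1, 4750 in set 2 and 6228 in set 3. In the authors' RPKM, which divide by exon length, spleen 2 was the highest at 16.7, beside 15.9 in thrombus 1 and 15.1 in spleen 1. The samples of set 1 thus did not stand out there.

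The receptors varied far more than Stat3. Il23r, the receptor subunit specific to interleukin 23, which signals through STAT3, lies on chromosome 6 (chr6:67422932-67491855, minus strand). It had 36, 252, 0 and 49 exon reads in thrombus 1 to 4, which is 2.34, 14.1, 0 and 4.54 CPM. It had 5.82, 0 and 0 CPM in vein wall 1, 2 and 3-4, against 0.140, 0.161 and 0.738 CPM in spleen 1, 2 and 3-4. Thrombus 1, 2 and 4 and vein wall 1 were above every spleen sample, and the remaining thrombus and vein wall samples had no exon read, so the groups overlapped.

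Pooled over samples, Il23r had 337 exon reads in thrombus and 62 in spleen, a ratio of library-scaled reads of 11.2 with a counting interval of 8.51 to 14.9. Thrombus 2 gave 252 of the 337 reads, and the interval covers counting error and not the spread between samples. Of the thrombus reads, 92 crossed an exon junction, so spliced transcript was present. In vein wall 1, 5 of 92 exon reads did. Intron reads of Il23r numbered 221 in thrombus, 131 in vein wall and 23 in spleen. Thrombus 4 held 162 of those in thrombus, beside its 49 exon reads. The fitted log2 fold change was 3.86 ± 2.29 in thrombus against spleen and 2.42 ± 2.20 in vein wall against spleen (SE, n = 4, 3 and 3), with adjusted p = 1.00 and 0.962 in edgeR. In thrombus against vein wall it was 1.44 ± 2.03 (adjusted p = 1.00). Without thrombus 2 the values of thrombus were 2.70 against spleen and 0.24 against vein wall. Within set 2 alone vein wall 1 exceeded spleen 2 by 4.59 on the log2 scale, while within set 3 the 2 vein wall samples were lower than spleen 3-4, with a difference of -3.29. The estimate for vein wall turned to -1.35 ± 2.95 with the set as a covariate and to -6.14 without vein wall 1, so its direction rests on that sample.

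Il1r1, the signalling receptor for interleukin 1 (chr1:40225080-40317257, plus strand), had 2.01, 1.40, 0.106 and 0.278 CPM in thrombus 1 to 4. It had 9.18, 0 and 0.0249 CPM in vein wall 1, 2 and 3-4, against 0.0701, 0 and 0 CPM in spleen 1, 2 and 3-4. Every thrombus sample was above every spleen sample, but thrombus 3 and 4 rest on 1 and 3 exon reads. Vein wall 1, with 145 reads, was the highest of all samples, while the other vein wall samples were within the range of spleen.

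The 60 exon reads of thrombus against 1 in spleen give a ratio of 123 on scaled libraries, with a counting interval of 21.3 to 4957. Thrombus 1 and 2 gave 31 and 25 of these reads, and the interval covers counting error and not the spread between samples. Of the 60 thrombus reads, only 3 crossed an exon junction, while in vein wall 1 it was 18 of 145. The log2 fold change of Il1r1 was 5.41 ± 2.71 in thrombus against spleen, with an unadjusted p of 0.0607 and an adjusted p of 1.00 in edgeR (n = 4 and 3). In vein wall against spleen it was 7.09 ± 2.94, with an unadjusted p of 0.0264 and an adjusted p of 0.837 (n = 3 each). Without vein wall 1 that value was -0.22. In thrombus against vein wall it was -1.68 ± 2.05 (adjusted p = 1.00), and 5.59 without vein wall 1. Intron reads of Il1r1 were found in every sample, 179 in thrombus, 103 in vein wall and 98 in spleen. All 3 spleen samples, vein wall 2 and 3-4 and thrombus 3 thus had reads from the introns of the gene with at most 1 exon read each.

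**Figure D2:**
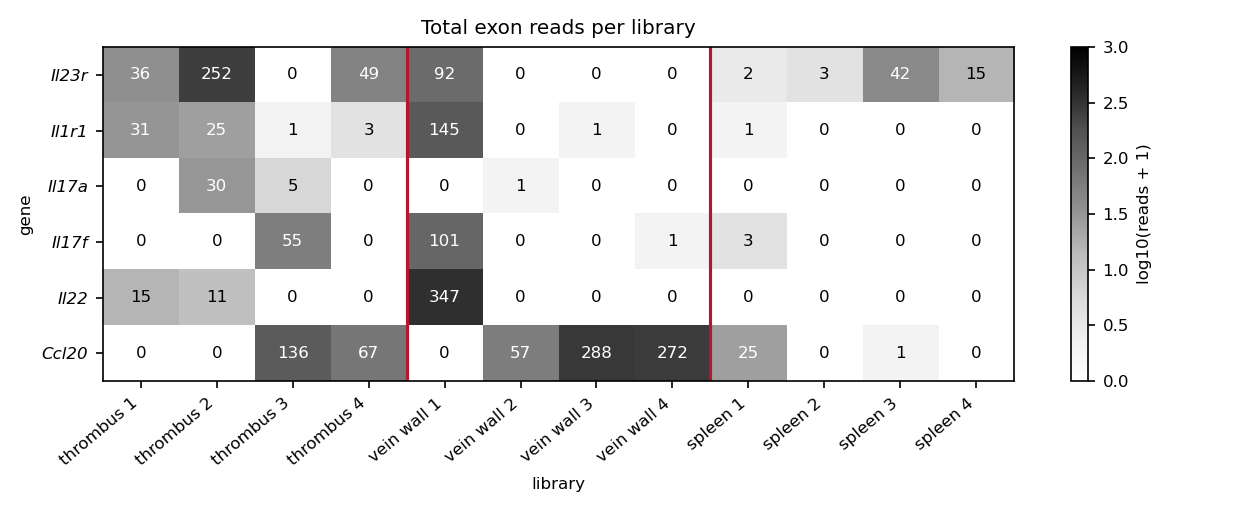
Total exon reads of 6 members (rows) in each of the 12 libraries (columns, grouped as thrombus, vein wall and spleen), shaded by log10 of reads plus 1. Reads of Il17a, Il17f and Il22 sit in a few libraries, among them 30 of Il17a in thrombus 2, 55 of Il17f in thrombus 3 and 347 of Il22 in vein wall 1.

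The secreted cytokines were rare. Il17a and Il17f encode the interleukin 17 chains that drive neutrophil recruitment and lie tail to tail on chromosome 1 (chr1:20730905-20734496, plus strand, and chr1:20777146-20790617, minus strand), 42649 bases apart. Il17a had 30 exon reads in thrombus 2, 5 in thrombus 3 and 1 in vein wall 2, and 0 in each of the other samples, spleen included. This is 1.68 CPM in thrombus 2, 0.529 CPM in thrombus 3 and 0.0537 CPM in vein wall 2. Thrombus and spleen overlapped at 0, in thrombus 1 and 4. None of the 35 thrombus reads of Il17a crossed an exon junction.

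Il17f was highest in other samples than Il17a, though thrombus 3 held reads of both. It had 0, 0, 5.82 and 0 CPM in thrombus 1 to 4. It had 6.39, 0 and 0.0249 CPM in vein wall 1, 2 and 3-4, against 0.210, 0 and 0 CPM in spleen 1, 2 and 3-4. Thrombus 3, with 55 reads of which 4 crossed a junction, and vein wall 1, with 101 reads of which 6 did, stood above all other samples. Spleen 1 held 3 reads, the limit that a count of 0 allows.

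Il22, which acts on epithelial cells, had 15 reads in thrombus 1 and 11 in thrombus 2, and 347 reads in vein wall 1, of which 95 crossed a junction. It had 0 reads in the other thrombus and vein wall samples and in all spleen samples. This is 0.973 and 0.615 CPM in thrombus 1 and 2 and 22.0 CPM in vein wall 1. Against the 3 reads that a count of 0 allows over all spleen samples together, Il22 was 17.8-fold higher in pooled thrombus and 171-fold higher in pooled vein wall. The counting intervals of the pooled ratios to spleen reached down to 13.5 in thrombus and 138 in vein wall. The vein wall value comes from 1 sample. With no filter on low counts edgeR gave Il22 a log2 fold change of 10.4 ± 2.85 in vein wall against spleen with adjusted p = 0.0676 (n = 3 each), and this missed the threshold; over its alternatives the adjusted p was 0.0676 to 1.00.

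The Il22 gene on chromosome 10 (chr10:118204942-118210047, plus strand) has a near copy, Iltifb (chr10:118289629-118295038, minus strand), and reads can match both. Their coding sequences of 540 bases differ at 9 positions, an identity of 98.33% in the GENCODE transcripts of GRCm38. Bases 68 to 217 of the coding sequences are shown because 5 of the 9 differences fall there, in capitals (G106A, A150G, C188T, T213C and C217T, with the Il22 base first and positions counted from the A of the start codon).
Il22: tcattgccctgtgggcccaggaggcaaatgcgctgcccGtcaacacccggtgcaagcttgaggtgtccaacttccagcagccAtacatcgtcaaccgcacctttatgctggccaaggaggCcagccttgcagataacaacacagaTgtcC
Iltifb: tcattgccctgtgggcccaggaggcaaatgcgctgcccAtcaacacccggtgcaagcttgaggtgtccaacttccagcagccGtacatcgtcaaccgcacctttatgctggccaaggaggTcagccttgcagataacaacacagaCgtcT
The longest stretch without a difference is 215 bases. In vein wall 1, 220 of the 347 Il22 reads matched that gene alone, and Iltifb had 0 reads. In thrombus 1, Il22 had 11 such reads of 15 and Iltifb 9 of 14, so there the share of each gene is uncertain.

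Ccl20, the chemokine that draws cells with the receptor Ccr6 (chr1:83116766-83119167, plus strand), had 0, 0, 14.4 and 6.21 CPM in thrombus 1 to 4. It had 0, 3.06 and 14.0 CPM in vein wall 1, 2 and 3-4, against 1.75, 0 and 0.0129 CPM in spleen 1, 2 and 3-4. The thrombus and vein wall samples of set 3 were the high ones, and all 3 samples of set 2 had no read. Thrombus overlapped spleen, and so did vein wall.

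Ccl20 had a log2 fold change of 3.15 ± 2.52 in thrombus against spleen and 3.30 ± 2.60 in vein wall against spleen (SE, n = 4, 3 and 3), with adjusted p = 1.00 and 0.962 in edgeR. In thrombus against vein wall it was -0.15 ± 2.20 (adjusted p = 1.00). With 1 sample left out, the value ran from 1.83 (without thrombus 3) to 8.52 (without spleen 1) in thrombus against spleen. In vein wall against spleen it ran from 1.41 (without vein wall 3-4) to 8.67 (without spleen 1). Within set 3 the difference from spleen 3-4 was 6.62 in thrombus and 6.10 in vein wall on the log2 scale, while within set 1 thrombus was lower than spleen, with a difference of -4.45. With the set as a covariate the values were 0.66 ± 3.94 and 0.94 ± 4.86. The genes whose log2 CPM over the 10 samples was most like that of Ccl20 were Amy2a4, Rps21 and Pnlip, with Pearson's r of 0.940, 0.938 and 0.933.

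Amy2a4 and Pnlip encode the pancreatic enzymes amylase and lipase. Pnlip had 0.0649, 0, 7.19 and 45.6 CPM in thrombus 1 to 4. It had 0, 7.20 and 32.0 CPM in vein wall 1, 2 and 3-4, against 0.280, 0 and 0.0129 CPM in spleen 1, 2 and 3-4. The samples with Ccl20 reads in thrombus and vein wall were thus the samples with Pnlip reads above 1 CPM, and they share set 3. The part of other tissue in the Ccl20 result was not tested.

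The promoters of the members were searched for the letters of the STAT motif. The windows run from 250 bases before to 50 bases after each RefSeq gene start (GRCm38.p6), and all 9 members had at least 1 window, 13 in all. The motif TTCNNNGAA, which reads the same on both strands, was in none of the 13 windows and in 8.3% of all 32841 promoters. This says only that these letters are not in the windows.

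Tmem176a and Tmem176b encode a pair of related membrane proteins of intracellular vesicles that are found in dendritic cells and in some lymphocytes of mice. Tmem176a (chr6:48840919-48847071, plus strand) and Tmem176b (chr6:48833818-48841496, minus strand) lie head to head and overlap by 578 bases in the Ensembl models of sets 1 and 3. In the RefSeq windows a start of each lies 108 bases from that of the other, and the stretch between them is shown since a start of each gene bounds it (chr6:48841374-48841483, plus strand, GRCm38.p6; the first capital is a start of Tmem176b and the last a start of Tmem176a).
Tmem176a and Tmem176b: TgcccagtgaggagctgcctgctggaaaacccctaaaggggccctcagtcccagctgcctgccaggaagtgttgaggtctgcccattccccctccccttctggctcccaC
Reads of the 2 genes where they overlap cannot be told apart, because the libraries do not mark strand.

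Tmem176a had 40.2, 36.1, 11.4 and 32.3 CPM in thrombus 1 to 4. It had 23.9, 0.591 and 5.51 CPM in vein wall 1, 2 and 3-4, against 4.28, 3.70 and 2.78 CPM in spleen 1, 2 and 3-4. All 4 thrombus samples were above all 3 spleen samples, while vein wall spanned the spleen range. Over all samples thrombus averaged 30.0 ± 12.8 CPM and spleen 3.59 ± 0.753 CPM (SD, n = 4 and 3).

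The log2 fold change of Tmem176a in thrombus against spleen was 3.07 ± 0.95 (SE), with an unadjusted p of 0.00451 and an adjusted p of 0.591 in edgeR. The difference was of like size in each set of files, 3.21 in set 1, 3.26 in set 2 and 2.75 in set 3. With the set as a covariate it was 3.21 ± 0.85 (adjusted p = 0.170), and DESeq2 gave 3.09 ± 0.88 (adjusted p = 0.0441). Over 18 alternatives the log2 fold change stayed between 2.89 and 3.34, and the adjusted p between 0.0102 and 1.00. Among the alternatives run, the gene passed the threshold under DESeq2 and with the set as a covariate without a filter on low counts, an alternative added after the data were seen.

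In vein wall against spleen the log2 fold change of Tmem176a was 1.48 ± 0.92 (adjusted p = 0.959), and -0.19 without vein wall 1. In thrombus against vein wall it was 1.59 ± 0.88 (adjusted p = 1.00, edgeR, n = 4 and 3). Tmem176b, in contrast, overlapped between all sites. It had 48.8, 96.7, 15.9 and 1.58 CPM in thrombus 1 to 4. It had 31.5, 20.5 and 3.91 CPM in vein wall 1, 2 and 3-4, against 11.6, 34.4 and 10.7 CPM in spleen 1, 2 and 3-4. Its log2 fold change was 1.11 ± 1.05 in thrombus against spleen, -0.02 ± 1.10 in vein wall against spleen and 1.13 ± 1.06 in thrombus against vein wall, each with adjusted p = 1.00 in edgeR (SE, n = 4, 3 and 3). Its value in thrombus against spleen was 0.20 without thrombus 2 and 1.88 without spleen 2.

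**Figure D3:**
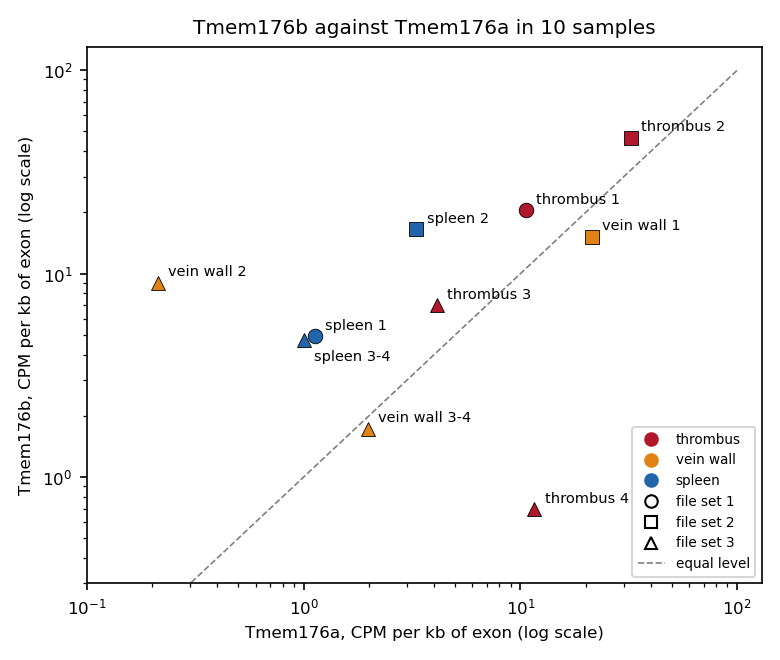
CPM per kilobase of exon of Tmem176b (y axis, log scale) against Tmem176a (x axis, log scale) in the 10 samples; colour gives the site and shape the set of files, and the dashed line marks equal levels. Each spleen sample lies above the line, with 4.37 to 5.01 times as much Tmem176b as Tmem176a, and thrombus 4 lies far below it, at 0.0600. All reads are used here, and with reads of a single match spleen 2 was at 23.1.

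The balance within the pair also differed between samples. Per kilobase of exon, the level of Tmem176b relative to Tmem176a was 1.95, 1.45, 1.71 and 0.0600 in thrombus 1 to 4. It was 0.710, 42.6 and 0.873 in vein wall 1, 2 and 3-4, against 4.37, 5.01 and 4.70 in spleen 1, 2 and 3-4. With all reads, spleen samples were close to each other, every thrombus sample was below them, and vein wall lay on both sides. Thrombus 4 had 348 reads of Tmem176a and 17 of Tmem176b, while vein wall 2 had 11 of Tmem176a and 381 of Tmem176b. In set 2 the NCBI model of Tmem176b spans Tmem176a, and only 226 of 645 Tmem176a reads in thrombus 2, 119 of 378 in vein wall 1 and 15 of 69 in spleen 2 had a single match. With reads of a single match the ratio was 1.91, 4.13, 1.67 and 0.0600 in thrombus 1 to 4. It was then 2.25, 40.9 and 0.862 in vein wall 1, 2 and 3-4, against 4.35, 23.1 and 4.67 in spleen 1, 2 and 3-4. Spleen samples were then not close to each other, as spleen 2 stood apart, and thrombus 2 came near spleen 1. Vein wall 1 lies below equal levels with all reads and above them with reads of a single match. This ratio was examined after its values were seen, and it was not tested.

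**Figure D4:**
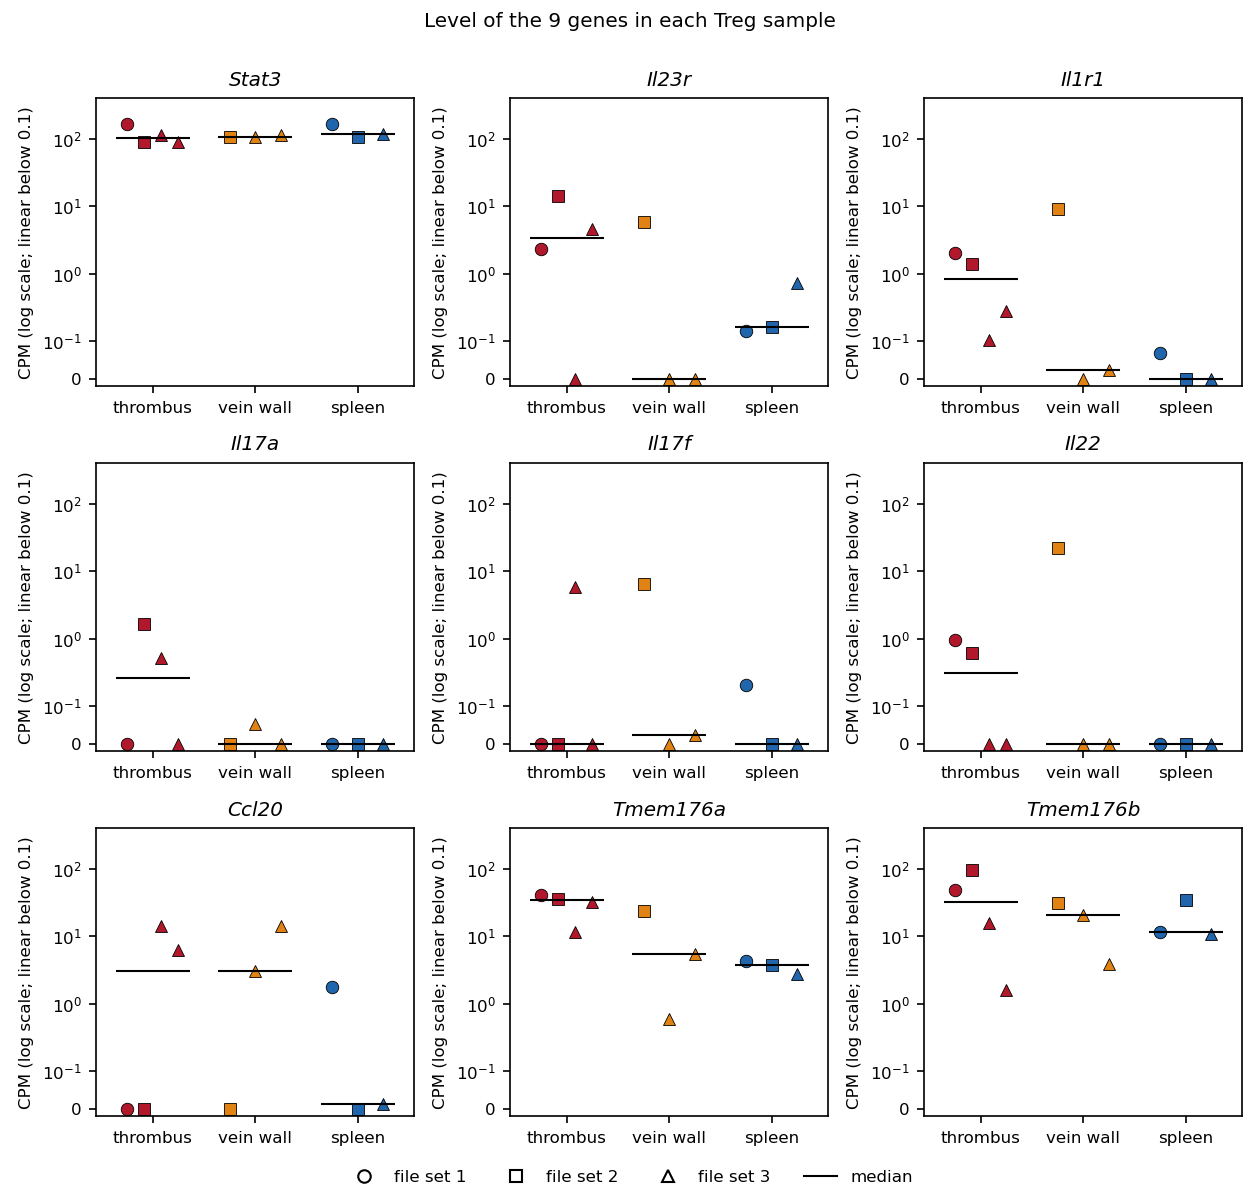
CPM of the 9 members (panels; log scale above 0.1 CPM and linear below) in each thrombus, vein wall and spleen sample, with shapes for the set of files and a line at the median. Stat3 lies between 89.3 and 167 CPM in all samples, Tmem176a of all thrombus samples lies above that of spleen, and the cytokines lie at 0 in most samples.

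The members did not vary over the samples as 1 group. Il23r, Il1r1 and Tmem176a followed one another over the 10 samples, with Pearson's r of log2 CPM of 0.776 between Il23r and Il1r1, 0.760 between Il23r and Tmem176a, and 0.774 between Il1r1 and Tmem176a. Ccl20 ran against Tmem176b (r = -0.704) and against Il23r (r = -0.602), and Tmem176a and Tmem176b had an r of 0.137. These are descriptions over samples that share sets, depth and tissue, and they carry no test. Vein wall 1 was the sample with the highest Il1r1, Il17f and Il22, and it had no Il17a or Ccl20 read. Thrombus 2 had the most Il23r, Il17a and Tmem176b, and thrombus 3 had Il17a, Il17f and Ccl20 with no Il23r read.

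Among all tested genes, those most like Il1r1 were Iqcg, Ceacam16 and Flt3 (r = 0.957, 0.956 and 0.914). Those most like Tmem176a were Lzts1, Anln and Flt3 (r = 0.936, 0.874 and 0.855), those most like Il23r were Mospd1, Tyrobp and Klhl6 (r = 0.916, 0.916 and 0.914), and those most like Tmem176b were Eif3d, Tmem159 and Rnaseh2a (r = 0.942, 0.940 and 0.939). Stat3 was most like Pycr1, Vars and Hdac5 (r = 0.936, 0.906 and 0.899). Flt3, a cytokine receptor of dendritic cells, had 6.55, 7.38, 0.106 and 0.649 CPM in thrombus 1 to 4. It had 3.99, 0 and 0.249 CPM in vein wall 1, 2 and 3-4, against 0.210, 0 and 0 CPM in spleen 1, 2 and 3-4. The 3 samples with most Flt3, thrombus 1 and 2 and vein wall 1, were also the 3 with most Il1r1.

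Markers of other cells were therefore set beside the members. All 13 dendritic cell markers had reads, and their summed level was 1764 to 11212 CPM in thrombus, 2421 to 12121 CPM in vein wall and 1280 to 2433 CPM in spleen. Most of it was Cd74 and H2-Ab1, and Clec9a, a marker of a dendritic cell subset, was at 0 in all spleen samples, in all thrombus samples but thrombus 2 and in all vein wall samples but vein wall 2. The sum was highest in vein wall 1 and thrombus 2, but single markers did not all follow it. Siglech was also highest in these samples, at 12.7 and 75.9 CPM. Zbtb46 was lower there, at 2.91 and 1.06 CPM, than in any spleen sample, at 4.60 to 12.3 CPM. Itgax and Batf3 were at 0 in vein wall 1 and at 5.03 and 1.45 CPM in thrombus 2. All 12 macrophage and monocyte markers had reads, with a sum of 62.3 to 2116 CPM in thrombus, 22.6 to 418 CPM in vein wall and 98.4 to 222 CPM in spleen. This sum was also highest in thrombus 2 and vein wall 1, with Lyz2 at 1349 CPM in thrombus 2, and the other thrombus samples had at most 119 CPM. Csf1r, however, was lower in thrombus 2 and vein wall 1, at 5.98 and 0.253 CPM, than in any spleen sample. All 9 fibroblast markers had reads. Their sum was 8.99 to 20.6 CPM in thrombus, 13.1 to 59.8 CPM in vein wall and 0.0536 to 2.89 CPM in spleen. By this sum every thrombus and vein wall sample was above every spleen sample, as was Tmem176a in thrombus. Col1a2, Col3a1, Pdgfra and Pdgfrb were at 0 in all spleen samples. Pdgfra, however, was at most 0.13 CPM in any sample. Col3a1 was also at 0 in vein wall 1, and Pdgfrb in all vein wall samples. Postn was highest in spleen 3-4, at 2.43 CPM. All 9 joined markers of the 10 for B and plasma cells had reads, with a sum of 342 to 986 CPM in thrombus, 531 to 1330 CPM in vein wall and 289 to 525 CPM in spleen. Like the dendritic cell sum, it was highest in vein wall 1 and thrombus 2. For Il23r, Il1r1, Tmem176a and Tmem176b, the part of other cells in the results was not tested.

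Il17a, Il17f and Il22 are also made by γδ T cells and by type 3 innate lymphoid cells. Cd163l1, a marker of γδ T cells, had 6.20 CPM in vein wall 1 and at most 0.185 CPM in any other sample, and Blk had 35.0 CPM there. Ncr1, a receptor of natural killer cells and of some innate lymphoid cells, had 34.6 CPM in vein wall 1. It had 25.2 CPM in thrombus 2 and 14.4 CPM in spleen 1, samples with 11 and 0 reads of Il22. The γδ T cell list had 4 of its 10 markers in the joined table, since T cell receptor constant genes could not be joined, and its sum was 3.57 to 12.8 CPM in thrombus, 4.08 to 41.2 CPM in vein wall and 2.24 to 8.84 CPM in spleen. All 10 markers of type 3 innate lymphoid cells had reads, with a sum of 2110 to 3267 CPM in thrombus, 1907 to 3465 CPM in vein wall and 1890 to 2629 CPM in spleen, but that list holds Il23r and genes that Treg express. Vein wall 1 had 1907 CPM of that sum, the lowest of the 3 vein wall samples. The vein wall sample with Il22 was thus also the sample with most Cd163l1, Blk and Ncr1. Other markers of these lists were at 0 there, Sox13 and Zbtb16 for γδ T cells and Kit for type 3 innate lymphoid cells. Blk also had 25.8 CPM in vein wall 3-4, which had 0 exon reads of Il22. The part of such cells in the Il22 and Il17f values was not tested.

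The wider Th17 programme was described with lists of other genes, chosen with earlier results of these data known. Ccr6, the receptor for Ccl20, averaged 117 CPM in thrombus, 139 CPM in vein wall and 64.5 CPM in spleen, and was not called (log2 fold change 0.86 ± 0.46 and 1.11 ± 0.49 against spleen, adjusted p = 1.00 and 0.885 in edgeR). Of 14 other Th17 transcription factors, 13 were tested, and edgeR called 0 in any comparison. With the set of files as a covariate it called 2, Fosl2 and Bhlhe40, as higher in thrombus than in spleen and as higher in vein wall than in spleen. That fit called 0.453% of all tested genes in thrombus against spleen and 0.41% in vein wall against spleen. Given how the lists were chosen, calls among them are only a description. Fosl2, an AP-1 subunit that limits the plasticity of Th17 cells, had 59.2 to 171 CPM in thrombus, 55.3 to 106 CPM in vein wall and 0.536 to 19.2 CPM in spleen.

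Fosl2 had, with the set as a covariate, a log2 fold change of 5.34 in thrombus against spleen (edgeR, adjusted p = 0.000182) and of 5.41 in vein wall against spleen (adjusted p = 0.00043). Without it, the values were 3.94 ± 1.11 (SE, adjusted p = 0.636) and 3.38 ± 1.11 (SE, adjusted p = 0.764) in edgeR. Bhlhe40, which in T helper cells promotes cytokine production, had 218 to 475 CPM in thrombus, 236 to 261 CPM in vein wall and 53.0 to 209 CPM in spleen, and its adjusted p with the covariate was 0.00199 in thrombus and 0.0143 in vein wall against spleen. Without the covariate, Bhlhe40 had differences of 1.64 ± 0.43 (adjusted p = 0.392) in thrombus and 1.14 ± 0.45 (adjusted p = 0.803) in vein wall against spleen on the log2 scale in edgeR, and neither was called.

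Of 19 cytokine receptors and their signal transducers, 18 were tested and 0 called. With the covariate 1 was called in thrombus against spleen, Il1rl1, the interleukin 33 receptor of tissue Treg, with a log2 fold change of 3.33 (adjusted p = 0.0298). Il1rl1 had 31.6 to 156 CPM in thrombus, 24.5 to 43.1 CPM in vein wall and 0.804 to 18.2 CPM in spleen. Of 13 genes that STAT3 induces directly, all were tested and 0 called, and with the covariate 1, Junb, was called against spleen, with a log2 fold change of 2.26 for thrombus (edgeR, adjusted p = 0.000157) and 2.27 for vein wall (adjusted p = 0.00043). Junb is an AP-1 subunit that also answers to other signals. Beside these calls, the fit with the covariate called 0.453% of all tested genes in thrombus and 0.41% in vein wall against spleen. Of 11 other effector products 7 were tested, and of 16 restraints of the programme 15 were tested, and 0 were called in either fit in any comparison.

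The median log2 fold changes in thrombus against spleen were 0.24 for the transcription factors, 0.54 for the receptors, 0.97 for the effector products, -0.09 for the restraints and 0.72 for the STAT3-induced genes, beside 0.03 for all tested genes. In vein wall against spleen they were 0.06, 0.20, -0.02, -0.43 and -0.19 in the same order of lists, beside -0.01 for all tested genes. These medians describe the lists and were not tested.

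**Figure D5:**
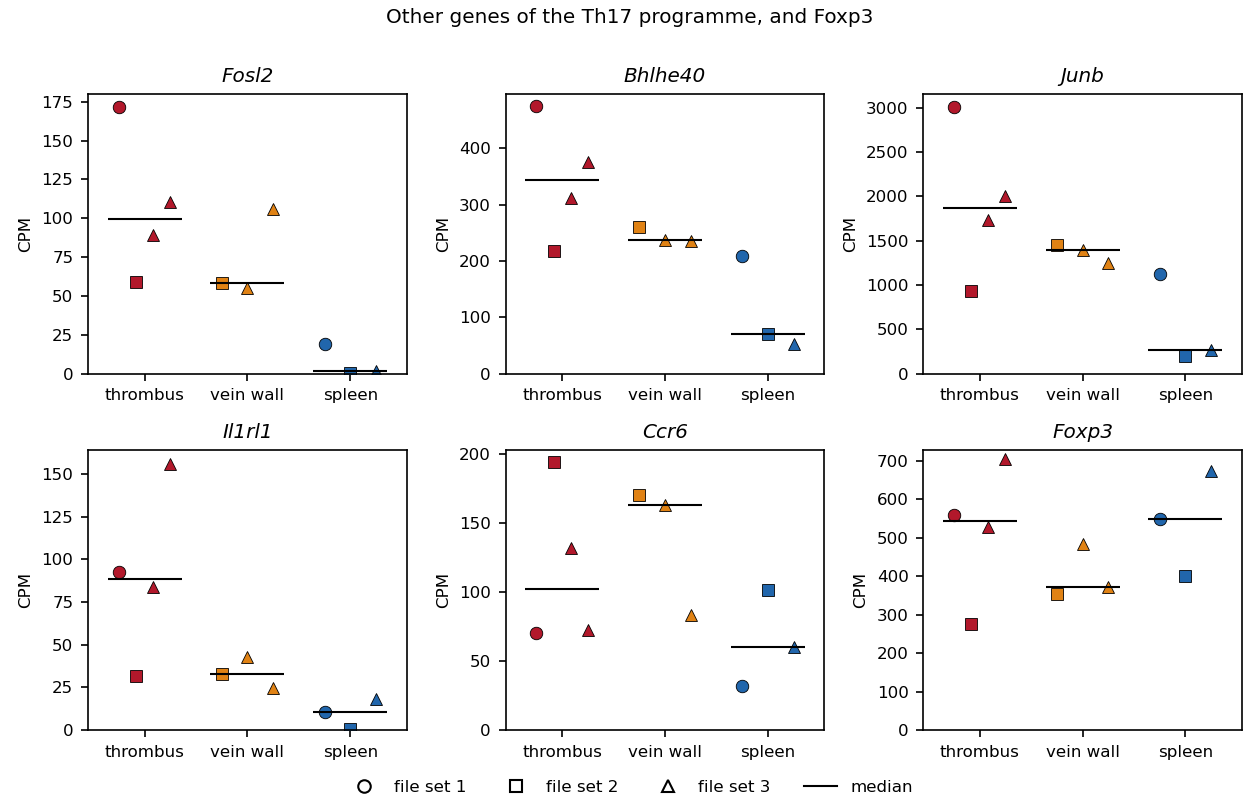
CPM (y axis, linear) of Fosl2, Bhlhe40, Junb, Il1rl1, Ccr6 and Foxp3 in each thrombus, vein wall and spleen sample, with shapes for the set of files and a line at the median. Fosl2 of every thrombus and vein wall sample lies above the 19.2 CPM of the highest spleen sample.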

How the data were processed

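Counts of total exon reads per gene were deposited by the authors for 12 libraries, beside unique exon, exon-exon and intron reads and RPKM. The submitters' processing notes name the GRCm38 build. Aligner and counter: not given in the sources used here. Per the labels' protocols, SMART-Seq cDNA from 2 ng of RNA, amplified over 12 cycles, went into Nextera XT libraries. Multiple matches made up 13.6% to 21.8% of exon reads. Other deposited values, the authors' RPKM with a decimal comma, served only to check levels.

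The 3 file sets were joined on Ensembl gene ID and, for the NCBI models of set 2, on symbol (20737 genes) or synonym (119). Replicate pairs were compared by a chi-square per gene with 40 or more reads over both libraries: the 2 summed pairs averaged 3.95 and 2.56, and the 16 others 96.8 to 355.

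edgeR 4.0.16 (R 4.3.3) fitted tissue to the 10 samples with TMM scaling, its default filter on low counts and robust quasi-likelihood, and was tested on simulated data. CPM use TMM-scaled totals; log2 values add a prior count of 2. DESeq2 1.42.0, unfiltered counts, unique reads, the set as a covariate, a replicate block and left-out samples were alternatives. All 9 members were named. Of the lists, genes called in either fit, the 2 largest changes per list and comparison, Ccr6, Rora and Foxp3 could be named, and those that bear on the members were. A gene that this rule also covers is not reported here. The members and lists were chosen with earlier results of these data known.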

Additional observations from a re-analysis of the deposited data

Results flagged for a closer look

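Il17f in thrombus was flagged because 1 sample stood apart from the other 3. Thrombus 3 had 5.82 CPM and thrombus 1, 2 and 4 had 0 CPM, so the gap to the nearest sample is the whole range of the group (ratio 1, above the 95% critical value of Dixon's test). The value rests on 55 exon reads, all of single match, of which 4 crossed an exon junction. Of the 88 intron reads of the gene over the thrombus samples, 80 were in thrombus 3 itself. Of the 9 members tested this way in thrombus, 1 was flagged. The rule flags about 1 in 20 groups by chance where values spread normally, but with 3 samples at 0 any other value gives a ratio of 1, so the flag adds nothing to the read counts.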

How the results depend on the processing

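The count of called members was 0 in each comparison, and 0 in all 10 fits that left out 1 sample. In thrombus against spleen it was 1 (Tmem176a) with DESeq2 and 1 (Tmem176a) with the set as a covariate and no filter, chosen after seeing the data. With the replicate number as a block the count was 0 in each comparison. Same-numbered libraries deviated together with r of -0.07 to 0.40 (median 0.08). In thrombus against spleen r was 0.40, 0.26, 0.16 and 0.095 for numbers 1 to 4, where equal numbers are also of 1 file set, and over all comparisons not every pair correlated, so the numbers were not taken to pair the samples. Of the members' single values under the alternatives, 338 kept direction and call or, for a ratio of tissue means, moved by less than the replicate SD. Another 23 turned direction, 2 became called and 1 (Stat3 with RPKM) moved by more than its replicate SD. The turned values are of members not called, and the cause was not tested. In vein wall against spleen, Il23r was -1.35 with the set as a covariate, -2.70 with the replicate block and -1.32 with covariate and no filter, and -6.14 to 3.62 with a sample left out. Tmem176b was 0.45 with the covariate, 0.0038 with DESeq2's size factors, 0.0057 with DESeq2 and 0.46 with covariate and no filter, and -0.62 to 0.77 with a sample left out. Stat3 was 0.0024 with covariate and no filter, and with a sample left out Il1r1 was -0.22 to 9.25 and Tmem176a -0.19 to 2.05. In thrombus against vein wall, Stat3 was -0.11 with the covariate and -0.17 with covariate and no filter, and -0.14 to 0.20 with a sample left out. Il1r1 was 0.20 with the covariate and 0.18 with covariate and no filter, and -2.28 to 5.59 with a sample left out. Ccl20 was -1.46 to 1.74 with a sample left out. In thrombus against spleen, Stat3 was -0.41 to 0.028 with a sample left out. The ratio of tissue means kept its sign for 22 of 23 values with the authors' RPKM and 23 of 23 with unique reads. The exception with RPKM was Stat3 in thrombus against vein wall. At this depth the cytokines cannot be read as absent where they had 0 reads, and Il1r1, Il17a, Il17f and Il22 rest on few samples.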

Other observations

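The share of Stat3 exon reads that crossed an exon junction differed between samples, a pattern looked at after its values were seen. It was 15.4%, 19.6%, 25.7% and 13.8% in thrombus 1 to 4. It was 28.9%, 24.0% and 3.38% in vein wall 1, 2 and 3-4, against 12.7%, 26.2% and 29.4% in spleen 1, 2 and 3-4. In vein wall 3-4 this is 153 of 4523 reads, where the median share over the 5664 genes with at least 1000 reads was 15.8%, and 16.8% of those genes had a lower share than Stat3. Vein wall 3-4 also had 2573 intron reads of Stat3, against 2170 in spleen 3-4 from 9035 exon reads. Reads that lie within a single exon were the majority of Stat3 exon reads in every sample, and their share was largest in vein wall 3-4. Exon-exon reads were present for Tmem176a in 9 of the 10 samples, vein wall 2 with its 11 reads being the exception.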
